A study of Drosophila melanogaster with 9 samples.

Results

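The genes bcd, osk, nos, cad, stau, swa, tor, trk, tsl and fs(1)N set up the head-to-tail axis and the 2 ends of the Drosophila melanogaster embryo from RNA and protein that the mother lays down in the egg. They were taken by these symbols from the matrix of gene read counts that the authors had divided by a size factor per library, and all 10 were found among its 15334 genes. RNA sequencing was run on embryos of 3 kinds, with 3 libraries of each. The obe2/Df embryos were laid by females that carried the obe2 allele over a deficiency (Df). The obe1/obe2 embryos came from mothers with the alleles obe1 and obe2. In both cases the fathers were obe2/+, so the group names give the mother's genotype, and sibling embryos within a library could differ in their own. The wild-type embryos are of the strain Oregon R (OreR). The gene obe (CG5205, obelus) encodes a Ski2-family RNA helicase. What the alleles change, and which deficiency was used, is not in the labels. Each library held about 50 embryos aged 3 h, staged between late stage 5 and early stage 6, around the end of cellularization and the start of gastrulation.

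In the ovary, bcd and osk RNA are carried to opposite poles of the oocyte, where Bicoid protein later patterns the front and Oskar protein assembles the germ plasm and holds nos RNA at the rear. Bicoid and Nanos act on zygotic gap genes and on maternal hb and cad RNA. The 2 ends are set by the receptor tyrosine kinase Torso, which is present over the whole embryo surface and is activated only at the poles, where Torso-like from follicle cells and several eggshell proteins make its ligand Trunk available.

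Depth was 61007517 to 123121486 whole reads per library, recovered from the deposited values. The 9 genes other than tsl reached the minimum mean of 10 normalized counts and were tested among 8346 genes with limma's moderated test, with a Benjamini-Hochberg adjusted p under 0.05 taken as called. Changes are log2 fold change ± SE, and levels are normalized counts, as mean ± SD over the 3 libraries of a group where not given per library. The RNA of obe was at 277, 245 and 183 in obe2/Df, 821, 672 and 698 in obe1/obe2 and 5850.1, 8562 and 6755 in OreR, and it fell in both obe groups (-4.91 ± 0.20 and -3.26 ± 0.20, adjusted p = 1.61e-06 and 1.92e-05). Replicate 1 of obe2/Df lay at 108.5 on the first principal component of all tested genes, against 47.5 and 49.8 for its other 2 libraries. Replicate 1 of obe1/obe2 also lay apart, at 10.5 against -32.4 and -15.2. Where leaving out 1 of these libraries ended a call of the 9 tested genes, or moved a called change by more than 1.5 times, this is stated. The labels say only that RNA was isolated in triplicate, so p-values measure only the spread among these 9 libraries, and that spread may be technical. The RNA is from whole embryos, so fewer cells with an RNA and less of it per cell cannot be told apart.

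Per length of exon, the localized and receptor RNAs stood far above those of the ligand and eggshell genes in OreR. With exon lengths from the Ensembl annotation of BDGP6, swa reached 14670.0 ± 1117 normalized counts per kb, osk 9852 ± 371, cad 9220.2 ± 862, bcd 8189 ± 307, stau 7530.1 ± 826 and tor 6363 ± 267. These 6 lay at the 83.8 to 95.1 percentile of tested genes with a length, and the neighbours in this order from osk to stau differed by less than the sum of their SDs. The nos level was 4509 ± 440.5 per kb, the 75.8 percentile. The genes that prepare the Torso ligand were lower, at 653 ± 154 per kb for fs(1)N and 200.4 ± 13.9 for trk, the 35.3 and 25.4 percentiles. In obe2/Df osk stood at 23311 ± 3577 per kb, above swa at 19007 ± 895, with SDs that overlap. In obe1/obe2 osk stood at 5738 ± 3509.8 per kb, below tor at 6905 ± 124, again within its SD.

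**Figure D1:**
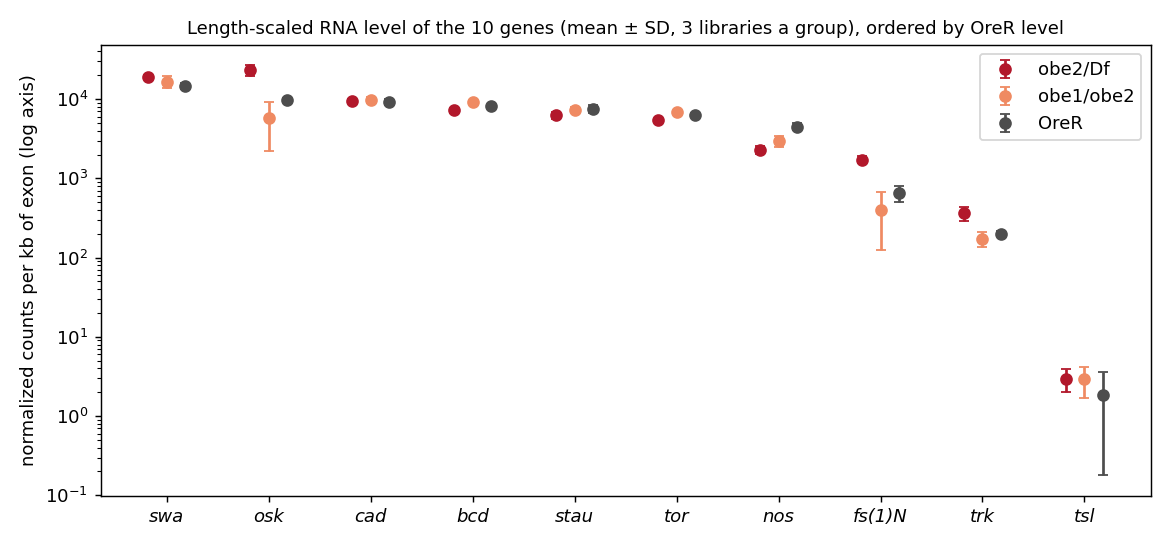
Level of each gene in normalized counts per kb of exon, on a log axis, for obe2/Df, obe1/obe2 and OreR (points: mean, bars: SD, 3 libraries each), ordered by the OreR level. The 6 genes from swa to tor lie above nos in all 3 groups, fs(1)N and trk lie below nos, and tsl lies near 3 or below.

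The RNA of tsl was all but absent, with 6, 6 and 8 reads in the obe2/Df libraries, 4, 6 and 7 in obe1/obe2 and 0, 8 and 4 in OreR. In OreR replicate 1, a gene at 0 could have up to 3 reads, or 3.53 normalized counts, from counting error alone. No test was made at this depth. Torso-like is made by follicle cells of the ovary, which are shed before the egg is laid. Of 16 follicle cell and eggshell markers listed, 15 were in the matrix, and their summed level was 44.9 to 60.5 normalized counts in obe2/Df, 22.7 to 49.4 in obe1/obe2 and 21.5 to 42.3 in OreR. The chorion genes Cp16, Cp19 and Cp38 and the vitelline membrane gene Vm26Ab were at 0 in all 9 libraries, and Yp3, a yolk protein gene, was the 1 marker that reached the minimum for testing.

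Against OreR, 4 of the 9 tested genes rose in obe2/Df (osk, fs(1)N, trk and swa), 3 fell (nos, tor and bcd) and 2 did not pass (cad and stau). Over all 8346 genes 31% rose, 29.5% fell and 60.5% were called in either direction, so a called gene is common in this comparison. The groups did not overlap for 8 of the 9 genes, all but cad, beside 70.5% of all tested genes. Of these 4 were higher, beside 36.2% of all genes, and 4 lower, beside 34.3%. In obe1/obe2 against OreR, 1 of the 9 genes fell (nos) and 0 rose with limma (also 0 at an unadjusted p under 0.05 and with edgeR or DESeq2). Over all genes 22.6% were called, 11% higher and 11.7% lower. With array weights 3 of the 9 genes rose, but so did 1509 of all 8346 genes, beside 916 without these weights. The groups did not overlap for 3 of 9 genes, beside 37.3% of all, with bcd and tor higher (17.1% of all) and nos lower (20.2%). Between obe2/Df and obe1/obe2, osk, fs(1)N and trk were higher and bcd and tor lower in obe2/Df, 5 of 9 beside 44.7% of all genes (25.2% higher and 19.5% lower). These groups did not overlap for 6 of 9 genes, beside 59.8% of all, with osk, fs(1)N and trk higher (30.7% of all) and bcd, tor and stau lower (29.2%). Both comparisons with OreR use the same 3 OreR libraries. The median change of the 9 genes was 0.03, -0.03 and -0.07 in obe2/Df against OreR, obe1/obe2 against OreR and obe2/Df against obe1/obe2, and that of all tested genes was -0.01, -0.07 and -0.03. Leaving out 1 library put the medians of the 9 genes between -0.052 and 0.073 in obe2/Df against OreR, -0.079 and 0.062 in obe1/obe2 against OreR, and -0.14 and -0.024 between the obe groups. After quantile normalization the share of all called genes that were higher was 59.3% in obe1/obe2 against OreR, beside 48.5% as deposited, and 43.4% between the obe groups, beside 56.3%.

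**Figure D2:**
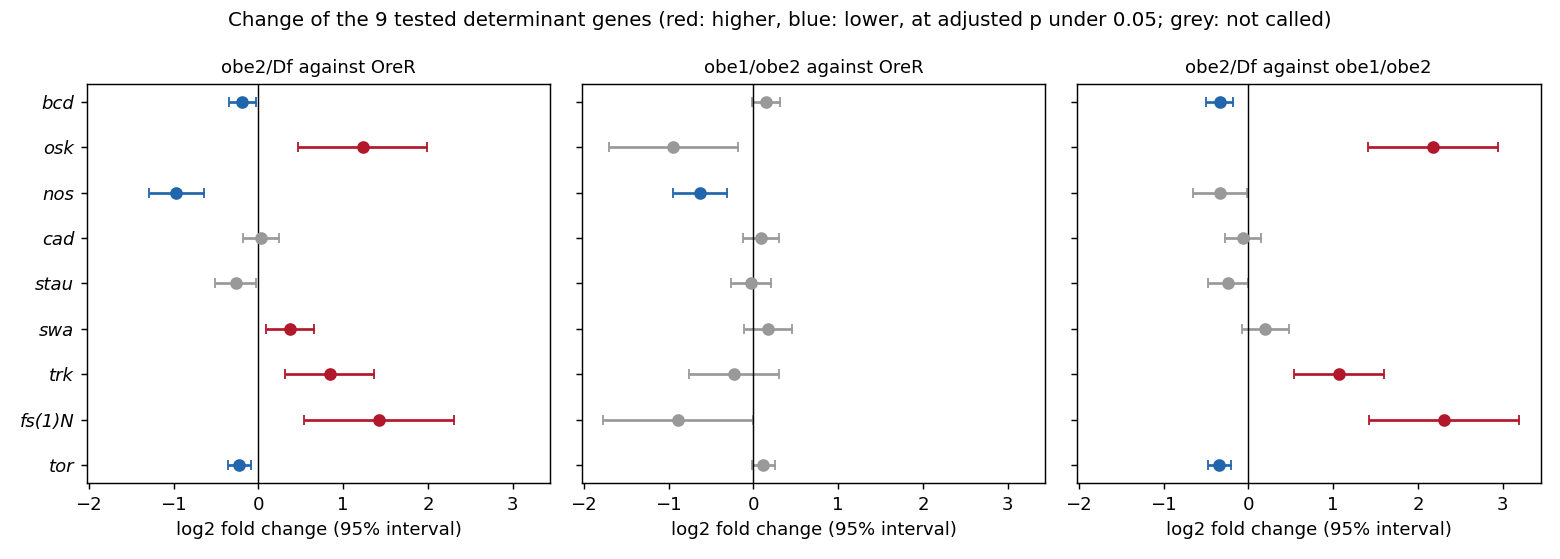
Log2 fold change of the 9 tested genes in the 3 comparisons, with 95% intervals from limma (red: called higher, blue: called lower, grey: not called). In obe2/Df against OreR osk and fs(1)N lie beyond 1.2 and nos near -0.97, while in obe1/obe2 against OreR the intervals of osk and fs(1)N are wide and nos is the 1 called gene.

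The RNA of osk, whose protein assembles the germ plasm, showed the widest range of the anterior-posterior genes. In replicates 1 to 3 it was at 70369, 55327 and 74943 normalized counts in obe2/Df, 28019, 9575 and 11794 in obe1/obe2 and 29486, 27777 and 27534 in OreR. All obe2/Df libraries lay above all others, and in obe1/obe2 replicate 1 lay among the OreR libraries while the other 2 lay far below them. The rise in obe2/Df was 1.23 ± 0.34 (adjusted p = 0.0124), and it passed in all 22 alternative settings tried, at 1.14 to 1.41. In obe1/obe2 the change of -0.94 ± 0.34 did not pass (adjusted p = 0.0751). Without obe1/obe2 replicate 1 it was -1.41 and passed (adjusted p = 0.000384). Between the obe groups osk was higher in obe2/Df by 2.18 ± 0.34 (adjusted p = 0.00259). In the authors' deposited table osk has a fold of 2.37 in obe2/Df (adjusted p = 0.0483). A non-coding RNA annotated at the same locus and on the same strand shares 2251 of the 2869 exon bases of osk, so reads of the 2 cannot be told apart.

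The translational repressor gene nos fell in both obe groups, while osk rose in obe2/Df. Its level was 5994, 4699 and 5616 in obe2/Df, 7775, 5653 and 7229.7 in obe1/obe2 and 11677, 10484 and 9616 in OreR. Both obe groups lay wholly below OreR, and they overlapped each other. The fall was -0.97 ± 0.14 in obe2/Df (adjusted p = 0.000801) and -0.63 ± 0.14 in obe1/obe2 (adjusted p = 0.0128, and 0.0501 at -0.56 without OreR replicate 1). In the authors' deposited tables nos has a fold of 0.513 in obe2/Df (adjusted p = 0.226) and 0.650 in obe1/obe2, and is called in neither. The difference between the obe groups, -0.34 ± 0.14, did not pass (95% interval -0.65 to -0.02, adjusted p = 0.0803), but did without obe1/obe2 replicate 2 (-0.47, adjusted p = 0.0236). Since the size factor cancels in a ratio within a library, the ratio of osk to nos does not depend on the scaling. It was 11.7, 11.8 and 13.3 in obe2/Df, 3.60, 1.69 and 1.63 in obe1/obe2 and 2.53, 2.65 and 2.86 in OreR. The libraries of obe2/Df thus lay 3-fold or more above every other library in this ratio, which shows that osk and nos changed unequally and not which of them moved. The library kit does not mark strand, and 2 genes on the opposite strand share exon bases with nos, CG11779 (269 bases) and Nsun5 (104 bases). CG11779 averaged 5054 in obe2/Df, 2743 in obe1/obe2 and 3239.8 in OreR, and it rose in obe2/Df (0.64 ± 0.23, adjusted p = 0.0376), opposite to nos.

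The anterior homeodomain gene bcd moved little. It was at 19128, 18857 and 16758 in obe2/Df, 22322, 22545 and 24341 in obe1/obe2 and 20303, 21666 and 20332 in OreR. The 3 groups did not overlap, with obe2/Df lowest and obe1/obe2 highest. Against OreR bcd passed in obe2/Df (-0.19 ± 0.07, adjusted p = 0.0464), but leaving out any 1 of the 9 libraries ended this call (adjusted p = 0.0509 to 0.161), as did quantile normalization (-0.10, adjusted p = 0.175), and it passed in 6 of 22 alternatives in all. In obe1/obe2 it did not pass (0.15 ± 0.07, adjusted p = 0.161). The difference between the obe groups, -0.34 ± 0.07, passed (adjusted p = 0.00619) and did so in all 21 alternatives. Between obe2/Df and obe1/obe2 the fold was 0.790 for bcd, where it was 4.52 for osk.

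The 2 genes whose products localize these RNAs gave small changes. Swallow, encoded by swa, is needed to keep bcd RNA at the anterior. Its RNA was at 40306, 36693 and 38298 in obe2/Df, 36789, 27107 and 37383 in obe1/obe2 and 27092, 31329 and 30569 in OreR, so obe2/Df lay above OreR and obe1/obe2 overlapped both. The rise of 0.38 ± 0.12 in obe2/Df passed (adjusted p = 0.0269). It no longer passed without OreR replicate 1 (0.31, adjusted p = 0.0908), OreR replicate 3 (0.40, adjusted p = 0.0524), obe2/Df replicate 1 (0.34, adjusted p = 0.076) or obe2/Df replicate 3 (0.38, adjusted p = 0.0606). In obe1/obe2 swa did not pass (0.17 ± 0.12, adjusted p = 0.337), and passed without obe1/obe2 replicate 2, its lowest library (0.33, adjusted p = 0.0267). Staufen, encoded by stau, is a double-stranded RNA-binding protein that acts on both osk and bcd RNA. Its level was 36879, 34275 and 29698 in obe2/Df, 39452, 37096 and 42297 in obe1/obe2 and 37386, 45518 and 38383 in OreR. The highest obe2/Df library lay just under the lowest library of each other group. The change of -0.27 ± 0.11 in obe2/Df missed the threshold (95% interval -0.51 to -0.03, adjusted p = 0.0537) and passed without obe2/Df replicate 1 (-0.34, adjusted p = 0.0367).

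Caudal, a homeodomain protein whose maternal RNA is repressed by Bicoid in the anterior, passed the test in none of the 3 comparisons. The cad level was 25686, 23579 and 23055 in obe2/Df, 26345, 22759 and 26790.1 in obe1/obe2 and 21148, 24774 and 25165 in OreR, and all groups overlapped. Its change was 0.03 ± 0.09 in obe2/Df (95% interval -0.19 to 0.24, adjusted p = 0.811) and 0.09 ± 0.09 in obe1/obe2 (95% interval -0.12 to 0.31, adjusted p = 0.493). The obe groups differed by -0.07 ± 0.09 (95% interval -0.28 to 0.15, adjusted p = 0.577). The cad gene is also transcribed by the embryo, and gene totals hold maternal and zygotic RNA together.

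**Figure D3:**
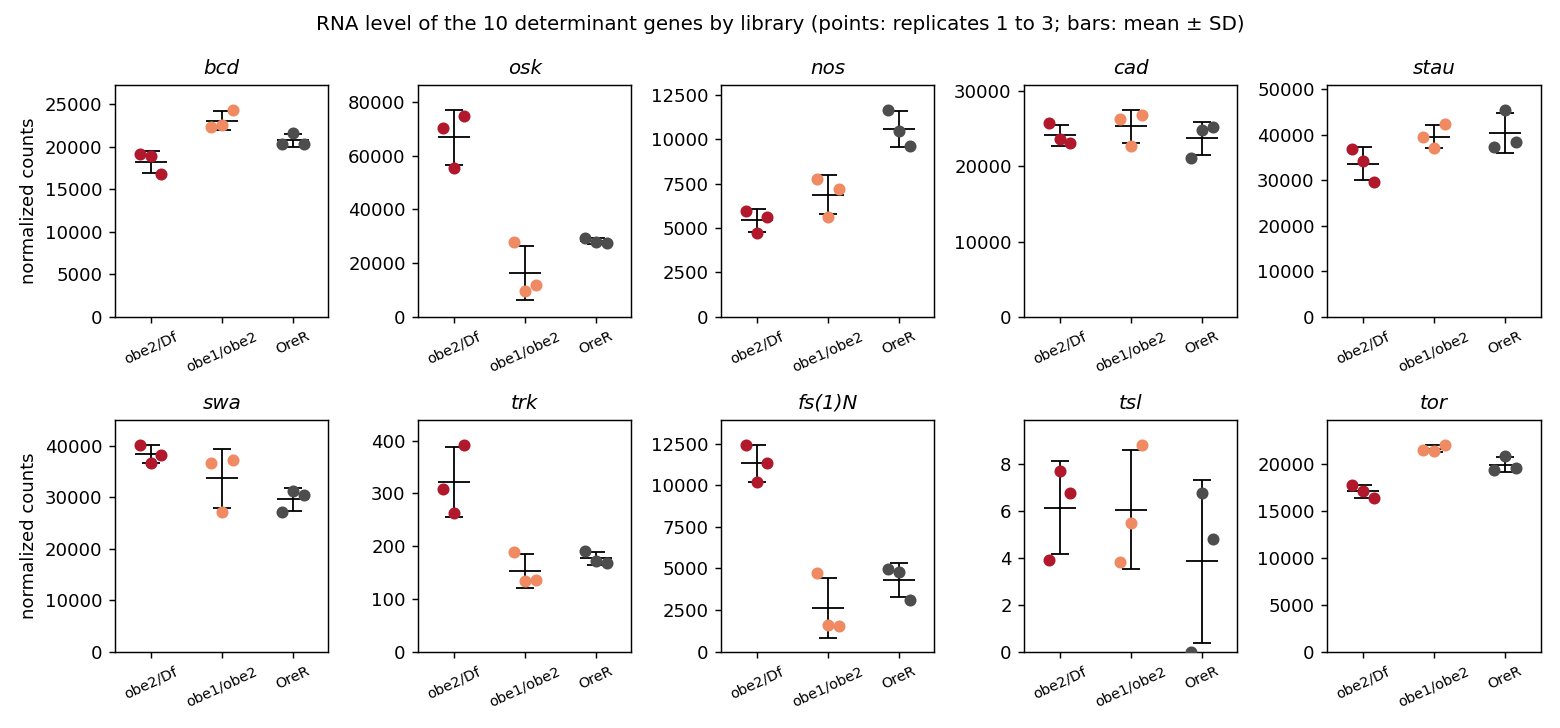
Normalized counts of the 10 genes in each library (points: replicates 1 to 3 from left to right, bars: mean ± SD), with axes that start at 0 and differ between genes. In osk, trk and fs(1)N the obe2/Df libraries lie above all others, in nos both obe groups lie below OreR, and in osk and fs(1)N replicate 1 of obe1/obe2 lies with OreR.

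Of the genes that make the Torso ligand available, fs(1)N and trk both rose in obe2/Df. Nasrat, encoded by fs(1)N, is an eggshell protein that Torso-like needs for its place in the vitelline membrane. The fs(1)N level was 12449, 10196 and 11330.2 in obe2/Df, 4700.0, 1619.6 and 1545 in obe1/obe2 and 4948, 4814 and 3126 in OreR. As with osk, every obe2/Df library was above all others, and obe1/obe2 replicate 1 lay within OreR while its replicates 2 and 3 lay below. The rise in obe2/Df was 1.42 ± 0.39 (adjusted p = 0.0126), called in all 22 alternatives, among them the authors' deposited table with a fold of 2.64 (adjusted p = 0.0253). In obe1/obe2 the change of -0.89 ± 0.39 did not pass (adjusted p = 0.135), but did without obe1/obe2 replicate 1 (-1.41, adjusted p = 0.00152). Between the obe groups the difference was 2.31 ± 0.39 (adjusted p = 0.0029).

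Trunk, the secreted ligand of Torso, is encoded by trk. Its RNA was at 309, 262 and 393 in obe2/Df, 189.5, 134 and 135 in obe1/obe2 and 190.5, 173 and 167 in OreR. The obe2/Df libraries were again the highest, and obe1/obe2 replicate 1 again lay with OreR. The rise in obe2/Df was 0.84 ± 0.23 (adjusted p = 0.0131), and it missed the threshold without obe2/Df replicate 3, the highest library (0.69, adjusted p = 0.0524). The obe1/obe2 change of -0.23 ± 0.23 did not pass (95% interval -0.75 to 0.30, adjusted p = 0.509). Without obe1/obe2 replicate 1 it was -0.39 and still did not pass. The obe groups differed by 1.07 ± 0.23 (adjusted p = 0.00707). On the opposite strand, Mulk shares 23 exon bases with trk and rose in obe2/Df (0.72 ± 0.15, adjusted p = 0.004), so with unstranded reads a small part of the trk count may be from Mulk.

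The receptor gene tor followed bcd rather than its ligand's genes. It was at 17706, 17122 and 16369.7 in obe2/Df, 21469, 21332 and 22062 in obe1/obe2 and 19358, 20883 and 19529 in OreR. The groups did not overlap, with the order obe2/Df, OreR, obe1/obe2 upwards. It fell in obe2/Df by 0.22 on the log2 scale (SE 0.06, adjusted p = 0.0107), but not after quantile normalization (-0.13, adjusted p = 0.0559). In obe1/obe2 it did not pass (0.12 ± 0.06, adjusted p = 0.179). The obe groups differed by -0.34 ± 0.06 (adjusted p = 0.00306). The ratio of fs(1)N to tor within a library was 0.703, 0.596 and 0.692 in obe2/Df, 0.219, 0.0759 and 0.0700 in obe1/obe2 and 0.256, 0.231 and 0.160 in OreR.

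The other genes that act between the eggshell and Trunk were 4: fs(1)M3 (polehole) and clos (closca), which encode further eggshell proteins needed with Nasrat, and the furin protease genes Fur1 and Fur2, which process Trunk. Both eggshell genes rose in obe2/Df and neither furin gene passed, beside 31% of all tested genes higher and 29.5% lower. For fs(1)M3 the values were 3968, 3692 and 5006 in obe2/Df, 1666, 862 and 838 in obe1/obe2 and 1811, 1346 and 1332 in OreR, a rise of 1.50 ± 0.27 in obe2/Df (adjusted p = 0.00198). For clos they were 12081, 9706 and 9775 in obe2/Df, 4813, 2206 and 2537 in obe1/obe2 and 4559, 4779 and 3191 in OreR, a rise of 1.35 ± 0.28 (adjusted p = 0.00377). Replicates 2 and 3 of obe1/obe2 were again the lowest libraries of both. In obe1/obe2 against OreR neither passed (adjusted p = 0.231 and 0.27), and both fell without obe1/obe2 replicate 1 (-0.80, adjusted p = 0.0131 and -0.80, adjusted p = 0.0155). Between the obe groups they were higher in obe2/Df by 1.98 ± 0.27 and 1.80 ± 0.28 (adjusted p = 0.00216 and 0.00259), beside 25.2% of all genes higher. Fur1 changed by -0.12 ± 0.11 in obe2/Df (adjusted p = 0.359) and Fur2 by 0.33 ± 0.16 (adjusted p = 0.112). Without OreR replicate 2, Fur2 passed in obe2/Df (0.48, adjusted p = 0.0326) and Fur1 in obe1/obe2 (0.29, adjusted p = 0.0446).

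Over the 9 libraries the levels of fs(1)N and trk followed those of osk, and the levels of bcd and tor ran opposite to it, the last mainly between genotypes. Pearson's r of log2 levels over the 9 libraries was 0.98 between osk and fs(1)N and 0.95 between osk and trk. After the mean of each genotype was taken out, these were 0.90 and 0.83. For bcd and tor r was 0.97, and 0.89 within genotypes. This was not particular to the pair, since stau had r of 0.99 with tor and 0.91 with bcd within genotypes. Over the 9 libraries stau had 0.82 with each. Between cad and swa r was 0.61, and 0.88 within genotypes. Between osk and bcd it was -0.89, but -0.34 within genotypes, and between osk and tor -0.88 and -0.12. Between fs(1)N and tor r was -0.86, and 0.03 within genotypes, and between fs(1)N and bcd -0.85 and -0.21. Between osk and nos it was -0.24, and 0.71 within genotypes. These values are descriptions, since the libraries share 3 genotypes and a common scaling. Among all tested genes fs(1)N ranked 124th and trk 546th by r with osk, with bcd and tor near the other end at 8177th and 8174th. The ratio of bcd to tor, free of scaling, stayed between 1.02 and 1.10 in all 9 libraries, and that of fs(1)N to osk between 0.114 and 0.184, while osk itself ranged from 9575 to 74943.

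**Figure D4:**
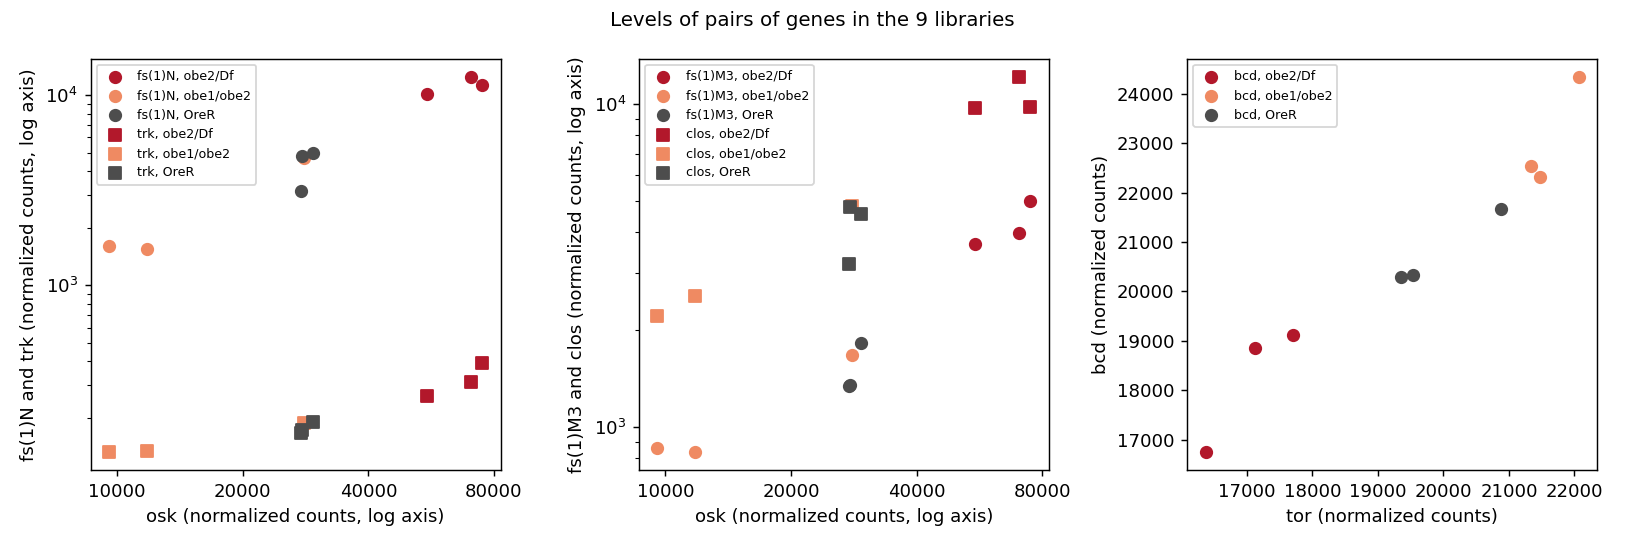
Normalized counts of fs(1)N and trk against osk (left) and of fs(1)M3 and clos against osk (middle), on log axes, and of bcd against tor (right), on linear axes that do not start at 0. Each point is 1 library. In the left and middle panels the obe2/Df libraries lie at the top right, obe1/obe2 replicates 2 and 3 at the bottom left, and obe1/obe2 replicate 1 with OreR.

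The tested genes most like each of the 7 called members over the 9 libraries were named by Pearson's r, 3 for each. For osk they were PyK (pyruvate kinase, r = 0.998), Aldh (aldehyde dehydrogenase) and Tsp74F (a tetraspanin). PyK averaged 34976 in obe2/Df, 12571 in obe1/obe2 and 18639.9 in OreR. For fs(1)N they were CG1597 (r = 0.997), BicC (an RNA-binding protein of oogenesis) and IntS1 (a subunit of Integrator). BicC averaged 81079 in obe2/Df, 17247 in obe1/obe2 and 28146 in OreR. For trk they were CG10672 (r = 0.991), the cell cycle repressor gene E2f2 and scat. For bcd they were polybromo (r = 0.982), gw and Ptp61F, and for tor gw (r = 0.992), MEP-1 and brm, of which polybromo and brm encode subunits of the same chromatin remodeller and gw acts in microRNA silencing. The gene gw averaged 101428 in obe2/Df, 138193 in obe1/obe2 and 124809 in OreR, the order of bcd and tor. For nos they were CG2135 (r = 0.976), Galpha49B and CG12262, and for swa Tango13 (r = 0.988), Cenp-C and car.

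Genes that localize or translate the maternal RNAs split in obe2/Df, with 9 of 23 higher and 9 lower and a median of 0.12, beside 31% higher and 29.5% lower over all tested genes. The actin nucleator gene capu, needed for osk localization, rose (3960.0 ± 247 in obe2/Df and 2015 ± 377 in OreR, 0.99 ± 0.15, adjusted p = 0.00101), as did orb (18162 ± 1806 in obe2/Df and 9063 ± 586 in OreR, adjusted p = 0.00495), which encodes an activator of osk translation. The exon junction genes eIF4AIII (-0.70 ± 0.10, adjusted p = 0.000641) and tsu (-0.55 ± 0.12), which act in osk RNA transport, fell, as did Tm1 (-0.40 ± 0.08) and sqd (-0.46 ± 0.10). Of the other exon junction genes of the list, btz rose (0.50 ± 0.16, adjusted p = 0.0231). It did not pass without OreR replicate 1 (0.34, adjusted p = 0.0711) or obe2/Df replicate 1 (0.43, adjusted p = 0.0728). The exon junction gene mago lay lower in every obe2/Df library (9288, 10704 and 10490) than in any OreR library (14853, 12558 and 13889). The higher genes numbered 4 without OreR replicate 1, 5 without OreR replicate 3, 3 without obe2/Df replicate 1 and 4 without obe2/Df replicate 3. In obe1/obe2 1 gene of the list was higher (glo, 0.37 ± 0.11) and 3 were lower (tsu, Imp and Khc), beside 22.6% of all genes called. The lower genes numbered 8 without obe1/obe2 replicate 1 and 1 without OreR replicate 2 or 3 or obe1/obe2 replicate 2 or 3, and the higher gene was lost without any library but obe1/obe2 replicate 1 and obe2/Df replicate 2. Against obe1/obe2, 9 of 23 were higher in obe2/Df and 5 lower, beside 25.2% and 19.5% of all genes. Of the 6 with the smallest adjusted p, glo and sqd were lower (-0.75 and -0.54, adjusted p = 0.00237 and 0.00344). The others were higher, orb by 1.26, capu by 0.70, tud, a germ plasm component, by 1.42 ± 0.27 and aret, the osk repressor Bruno, by 1.15 ± 0.24.

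A list of 9 genes held factors that act with Nanos or repress or clear maternal RNA, and vfl, which encodes the zygotic activator Zelda. Of these, 4 rose in obe2/Df with limma and 0 fell (also 0 at an unadjusted p under 0.05 and with edgeR or DESeq2), beside 31% and 29.5% of all genes. The Nanos partner brat was at 71498 ± 7373 in obe2/Df and 35702 ± 5788 in OreR (1.01 ± 0.17, adjusted p = 0.00158). The deadenylase gene twin rose by 0.58 ± 0.18, and the Pan Gu kinase genes gnu and png by 0.51 ± 0.13 and 0.75 ± 0.22. Without obe2/Df replicate 3, twin and png no longer passed (0.55, adjusted p = 0.0561 and 0.68, adjusted p = 0.0553), nor did twin without OreR replicate 1 (0.40, adjusted p = 0.0555). In obe1/obe2 png was lower (-0.85 ± 0.22, adjusted p = 0.0238) and vfl, the Zelda gene, higher (0.62 ± 0.19, adjusted p = 0.0448), 2 of 9 beside 22.6% of all genes called. The png call was lost without any 1 OreR library or obe1/obe2 replicate 2 or 3, and the vfl call without OreR replicate 1 or 3, any 1 obe1/obe2 library or obe2/Df replicate 2. Of 10 further maternal RNAs known to be cleared in the early embryo, 5 rose in obe2/Df and 2 fell, beside 31% and 29.5% of all genes, with stg up by 0.94 ± 0.15 and polo down (-0.30 ± 0.06). As with cad, gene totals do not part maternal from zygotic RNA, for stg or for the rest of this list. The higher ones numbered 3 without OreR replicate 1 or obe2/Df replicate 1, and the lower ones 1 without OreR replicate 3 or obe2/Df replicate 1. The heat shock gene Hsp83, whose RNA is cleared outside the pole, was at 178687, 153791 and 187177 in obe2/Df, 110478, 52445 and 62854 in obe1/obe2 and 129473, 141890.0 and 131428 in OreR. The 2 lowest libraries of osk were also the lowest here. In obe1/obe2, 2 of these 10 RNAs were higher (gcl and CycB) and 2 lower (aur and Hsp83), beside 22.6% of all genes called. Leaving out 1 library gave 0 to 2 higher and 1 to 3 lower. The Hsp83 change was -0.91 (adjusted p = 0.0234), and its call was lost without any 1 OreR library or obe1/obe2 replicate 2 or 3.

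Downstream of Torso, 3 of 19 signal transduction genes were higher in obe2/Df and 8 lower, with a median of -0.18 (-0.27 without OreR replicate 1), beside 60.5% of all genes called, 31% higher and 29.5% lower. The share of the list called in either direction, 11 of 19, was near that background. The exchange factor gene Sos rose to 6154 ± 177 in obe2/Df, against 2361 ± 381 in OreR (1.39 ± 0.31, adjusted p = 0.00486), and the adaptor gene Shc by 0.81 ± 0.14. The MAP kinase gene rl fell (-0.48 ± 0.08, adjusted p = 0.0018), as did Ras85D (-0.50 ± 0.09) and the 14-3-3 genes 14-3-3zeta (-0.49 ± 0.08) and 14-3-3epsilon (-0.48 ± 0.09). Each count stayed at 3 and 8 when any 1 library was left out. In obe1/obe2 ksr was higher (0.46 ± 0.14) and phl, the Raf gene, and cnk were lower (-0.26 ± 0.07 and -0.30 ± 0.09), beside 22.6% of all genes called. The ksr call was lost without OreR replicate 1 or 3, obe1/obe2 replicate 1 or 3 or obe2/Df replicate 2 or 3. The lower genes numbered 0 without OreR replicate 2 or 3, obe1/obe2 replicate 2 or obe2/Df replicate 2, and 1 without obe1/obe2 replicate 3 or obe2/Df replicate 1.

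The zygotic genes that the anterior-posterior and terminal systems act on were low in obe2/Df, where 14 of 15 fell with limma and 0 rose (also 0 at an unadjusted p under 0.05 and with edgeR or DESeq2), beside 29.5% of all genes lower. The Torso targets tll and hkb averaged 234 ± 199 and 167 ± 149 in obe2/Df and 3870.3 ± 1004 and 1997 ± 797 in OreR, changes of -5.29 ± 1.29 and -4.73 ± 1.27 (adjusted p = 0.00752 and 0.0115). In obe2/Df replicates 1 to 3, tll was at 6.51, 378 and 317 and hkb at 5.21, 195 and 299.7, so replicate 1 was far the lowest. Without it their changes were -3.45 and -2.97, and both still passed. The gap genes Kr and gt changed by -3.91 ± 0.71 and -5.09 ± 1.08, and without obe2/Df replicate 1 by -3.03 and -3.57. In contrast hb, whose RNA is also laid down by the mother, fell by 0.36 on the log2 scale (SE 0.13, adjusted p = 0.0346). That call was lost without OreR replicate 1 or 3 or any 1 obe2/Df library (adjusted p = 0.0515 to 0.112). The median of the list was -4.27, and -2.89 without obe2/Df replicate 1. The lower genes numbered 9 without OreR replicate 1. A list of 19 other genes switched on early in the embryo had 18 lower and a median of -4.57 (-3.24 without obe2/Df replicate 1). In obe1/obe2, 0 genes of either list passed with limma in either direction, beside 22.6% of all genes called. Also 0 passed at an unadjusted p under 0.05 or with edgeR or DESeq2 on whole reads. Without obe1/obe2 replicate 2, 1 early zygotic gene was lower. The list changes there had medians of -0.86 and -0.48. The first was -0.54 without obe1/obe2 replicate 1 and -0.56 without replicate 3. The second was -0.25 without obe1/obe2 replicate 1, -0.87 without replicate 2 and -0.28 without OreR replicate 1.

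The mean log2 level of the early zygotic list, relative to OreR, was, in replicates 1 to 3, -7.38, -2.82 and -3.80 in obe2/Df, -1.07, 0.26 and -0.79 in obe1/obe2 and 0.35, -0.22 and -0.13 in OreR. Within obe1/obe2 the osk order (replicates 1, 3 and 2 downwards) was the reverse of the order of these means. Within obe2/Df the library with the lowest osk, replicate 2, had the highest mean, while the lowest mean, in replicate 1, went with the middle osk value. The part of embryo age or of zygotic transcription in the changes of the maternal genes was not tested. The list of cleared maternal RNAs had means of 0.32, 0.22 and 0.34 in obe2/Df, 0.10, -0.22 and -0.07 in obe1/obe2 and -0.05, 0.01 and 0.03 in OreR, with obe2/Df above the other groups in every library and osk also highest there.

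**Figure D5:**
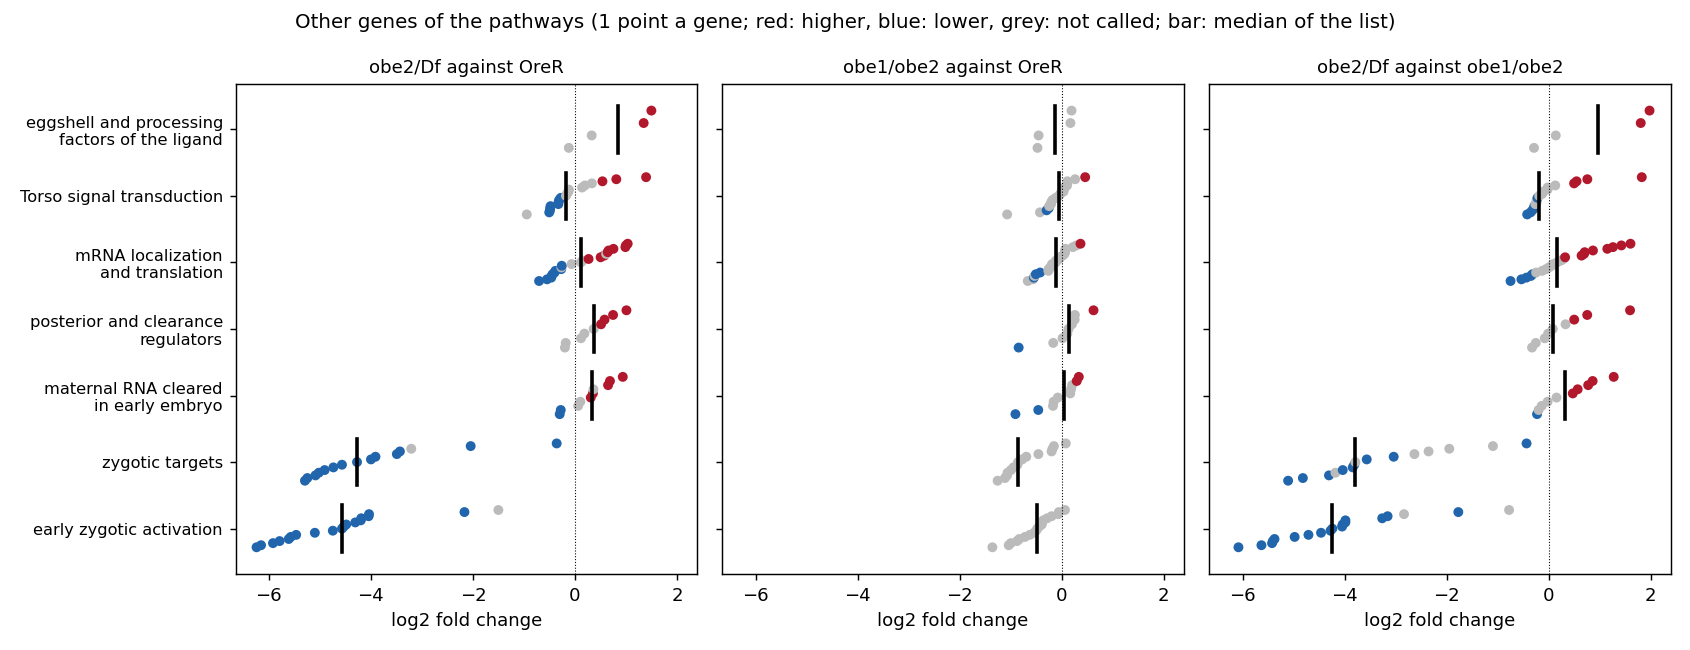
Log2 fold change of the tested genes of 7 pathway lists in the 3 comparisons, on a shared axis (1 point a gene; red: called higher, blue: called lower, grey: not called; bar: median). In obe2/Df against OreR the zygotic lists centre below -4, while the maternal lists lie within about 1.5 of 0, and 3 of these 5 lists hold genes called in both directions.

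The genes obe, bcd, osk, nos and tsl are all on chromosome arm 3R, and the reference annotation lists 517 genes between obe and nos, the nearest of them, 879 between obe and tsl, 1024 between obe and osk and 1379 between obe and bcd. The labels do not give the extent of the deficiency. Of the others, cad and trk are on 2L, stau and tor on 2R, and swa and fs(1)N on X.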

How the data were processed

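The authors deposited a matrix of gene read counts divided by 1 size factor per library, the signal values used here, per the file headers and names, which point to featureCounts and DESeq. They also deposited 2 tables of comparisons with OreR, with group means, a fold (a ratio of means), a p-value and an adjusted p-value over genes. STAR, Cuffdiff, Cufflinks 2.1.1 and the build dm3 are listed without a role in the submitters' processing notes. The gene annotation was not given in the sources used here. RNA was extracted with Trizol and made into TruSeq v2 libraries, per the labels. All values (100%) were whole multiples of 1 step per library within 0.001 of a read, which gave whole reads back.

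Genes with a mean of at least 10 were fitted with limma 3.58.1 in R 4.3.3, on the log2 of the deposited value plus 1, with a trend in the prior variance and 1 term for each of the 3 groups over all 9 libraries. Fold changes on this scale understate changes of low genes. Other settings tried were a pseudocount of 0.5 or 5, a minimum mean of 0 or 50, TMM or quantile scaling, array weights, a replicate block, only the 6 libraries of the groups compared, edgeR 4.0.16 and DESeq2 1.42.0 on whole reads (1811 and 2440 genes called in obe1/obe2, 4984 and 5297 in obe2/Df), the authors' tables, each library left out, and, added after seeing the data, replicate 1 of both obe groups left out. The fit was tested on simulated data. Lists held 116 symbols, 115 of them found, 4 by a synonym, and up to 6 called genes with the smallest adjusted p were eligible to be named. CG11779, Mulk, Fur1, Fur2, hb, btz, mago and the markers at 0 were named after their values were seen. Exon lengths came from the Ensembl annotation (BDGP6) by gene name, for 8258 of the 8346 tested genes. Members, lists and rules were chosen with earlier results of these data known. Figures were drawn with Python 3.11.15.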

Additional observations from a re-analysis of the deposited data

Results flagged for a closer look

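The effects of the obe2/Df and obe1/obe2 mothers against OreR pointed in opposite directions for 5 of the 9 tested genes, and the difference between the obe groups passed the test in each (limma, Benjamini-Hochberg adjusted). The 2 effects share the OreR libraries. The difference alone passed for 44.7% of all tested genes, and the share of all genes that meet both conditions was not counted. For osk the difference was 2.18 (adjusted p = 0.00259), with 1.23 in obe2/Df and -0.94 in obe1/obe2. For fs(1)N it was 2.31 (adjusted p = 0.0029), with 1.42 in obe2/Df and -0.89 in obe1/obe2. The trk difference was 1.07 (adjusted p = 0.00707), with 0.84 and -0.23 in the same order. The bcd difference was -0.34 (adjusted p = 0.00619), with -0.19 and 0.15, and that of tor -0.34 (adjusted p = 0.00306), with -0.22 and 0.12. With limma and equal weights for the 9 libraries, 0 of the 5 obe1/obe2 effects passed against OreR. With array weights 4 of them passed, osk (-1.20, adjusted p = 0.00213), fs(1)N (-1.24, adjusted p = 0.00553), bcd (0.22, adjusted p = 0.0192) and tor (0.15, adjusted p = 0.0331), with the same signs. Of all 8346 tested genes, these weights called 3451 in obe1/obe2 against OreR, beside 1889 without them.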

How the results depend on the processing

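The calls of osk and fs(1)N in obe2/Df against OreR, and of osk, fs(1)N, trk, bcd and tor between the obe groups, held in every alternative run. Leaving out 1 library gave 2 to 4 higher and 2 to 3 lower members in obe2/Df against OreR, 0 to 1 higher and 0 to 3 lower in obe1/obe2 against OreR, and 3 higher and 2 to 3 lower between the obe groups. With replicate 1 of both obe groups left out, obe1/obe2 had 3 lower. Array weights gave 3 higher and 3 lower in obe1/obe2 and 4 lower between the obe groups. Quantile normalization left 1 lower in obe2/Df. The authors' deposited tables call 2 higher (osk and fs(1)N) and 0 lower in obe2/Df and 0 lower in obe1/obe2. In obe2/Df their adjusted p was 0.226 for nos, 0.308 for trk, 0.805 for swa, 0.927 for tor and 0.954 for bcd. Over all tested genes, array weights call 3451 in obe1/obe2 and the authors' deposited table calls 525, beside 1889, and in obe2/Df the authors' deposited table calls 1559, beside 5050. The cause was not tested. Among the genes named, signs changed only in uncalled ones. For stau in obe1/obe2 array weights gave 0.070, and leaving out 1 library gave -0.079 to 0.062. For cad in obe2/Df array weights gave -0.012, leaving out 1 library -0.052 to 0.073, and leaving out replicate 1 of both obe groups -0.019. For cad between the obe groups quantile normalization gave 0.029, and for Fur1 in obe2/Df leaving out 1 library gave -0.18 to 0.0025. With the replicate number as a block, members called were 4 higher and 2 lower in obe2/Df, 0 and 1 in obe1/obe2, and 3 and 3 between the obe groups. Whether the numbers pair the libraries was not settled. Of 9 same-numbered pairs, 2 had a correlation of deviations over 0.1. Both were between the obe groups, 0.521 for replicate 1 and 0.380 for replicate 2. The highest value for unlike numbers was 0.376, and 4 of 9 libraries were most like their own number. Depth limits tsl, at 0 to 8 reads per library.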
